A study of Mus musculus with 13 samples.

Results

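The kinesin genes encode motor proteins that use ATP to move along, or to take apart, microtubules. They were taken from a table of gene-level read counts by symbol: every symbol made of Kif and a number, with or without a closing letter, or of Kif, a letter and a number was a member. This gave 40 of 38279 symbols, of which 36 of the 20101 symbols with enough counts for a test were tested. The members were divided by known role into 12 mitotic kinesins, 15 transport kinesins, 7 kinesins of cilia and hedgehog signalling and 5 others, and Kif28 was given no role. Cenpe, a mitotic kinesin, and Kifc5b, a close copy of Kifc1, do not have names of this form and are given only beside the members. Kif2b was not among these 40 symbols and was not analysed here.

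The counts came from 10 mouse libraries of polyA-selected RNA from whole tissue. The 6 tumour libraries were from mammary tumours of Cre-positive mice, in which mating at 12 weeks of age was used to induce excision of Fbxw7, the gene of a ubiquitin ligase subunit that selects cell cycle regulators for destruction. The mice of tumours 1 to 6 were 25, 32, 39, 19, 53 and 25 weeks old. The 4 wild-type libraries were from whole mammary glands of Cre-negative mice, mated at the same age, at 20 weeks for glands 1 to 3 and 40 weeks for gland 4. Mating is thus common to both groups, while Cre status, tumour state and, in part, age differ together and cannot be told apart. The promoter that drives Cre, the excised exons and the Fbxw7 alleles of the Cre-negative mice are not given in the sources used here. Separate animals are not stated for the libraries, so the p-values reflect the spread among libraries, part of which may be technical. Another 3 of the 13 samples of the series, of purified epithelium, were not analysed here.

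Most kinesins walk towards the plus ends of microtubules through a conserved motor domain, and differ in the cargo their tails bind. Mitotic kinesins build the bipolar spindle, move chromosomes and organise the midzone where the cell divides. Their transcripts are made mainly in the G2 and M phases of the cell cycle, so in a bulk tissue their level depends in part on the share of dividing cells. That share was not measured here. Transport kinesins carry vesicles, organelles and RNA in dividing and non-dividing cells alike, and are richest in cells with long processes such as neurons. In a bulk library, fewer cells of a type and less RNA per cell cannot be told apart.

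Total counts ranged from 13723065 in gland 3 to 48353114 in gland 2. Levels below are CPM, read counts scaled to a common library size with TMM factors, log2 fold changes are tumours over glands with their standard error after the ± sign, and a gene was called when its adjusted p in edgeR's two-sided quasi-likelihood test was below 0.05. Some libraries stood apart. Of the counts of tumours 1 and 6, 50.3% and 18.6% came from 10 salivary gland markers, against at most 0.0387% in tumours 2 to 5 and 0.0528% in the glands. Skeletal muscle markers took 7.07% of the counts of gland 4. Luminal epithelial markers summed to 1752 to 4084 CPM in tumours and 458 to 766 CPM in glands, and 8 of 10 were called higher. Adipocyte markers summed to 17.7 to 1322 CPM in tumours and 7606 to 29238 CPM in glands, with 10 of 10 called lower. Summed T cell markers were at 4.23 to 79.4 CPM in tumours and at 17.5, 569, 450 and 1.97 CPM in glands 1 to 4. The B cell markers summed to 4.40 to 70.2 CPM in tumours and to 12.5, 357, 372 and 1.91 CPM in the glands. Summed basal epithelial markers spanned 111 to 4428 CPM in tumours and 138 to 223 CPM in glands, fibroblast markers 218 to 6553 and 3553 to 7720 CPM, and macrophage markers 409 to 1240 and 239 to 771 CPM. Of 8 basal markers, Krt14 and Krt17 were called higher, while Acta2, Myh11, Oxtr and Cnn1 had log2 fold changes of -0.39 to -2.06 and were not called. Cd14, the 1 of 8 macrophage markers called, held 232, 1061 and 510 CPM of the sums of tumours 2 to 4, and the rest 177, 179 and 162 CPM. Endothelial markers summed to 44.0 to 445 CPM in tumours and 179 to 236 CPM in glands, with 4 of 8 called lower and a median log2 fold change of -1.60. The 445 CPM, in tumour 1, held 408 CPM of Pecam1 and 37.3 CPM of the other 7 markers. No marker on these lists was at 0 in all libraries.

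Most mitotic kinesins rose in tumours, while the few transport kinesins that changed fell. Of 12 mitotic kinesins, 11 were called higher in tumours and 0 lower, with a median log2 fold change of 2.94, or 7.69-fold. Of 14 tested transport kinesins, 0 were called higher and 4 lower, with a median of -0.79, or 1.73-fold lower. DESeq2 and limma-voom also called 0 transport kinesins higher at an adjusted p below 0.05, and called 4 and 3 lower. At an unadjusted p below 0.05 edgeR gave 0 higher and 6 lower, DESeq2 0 higher and 6 lower, and limma-voom 1 higher and 7 lower. Over all tested genes, 6.89% were called higher and 8.19% lower, and the median log2 fold change was 0.17. The share of mitotic kinesins called higher was thus far above the share of all genes, while 4 of 14 lower rests on few genes. The medians of the mitotic and transport kinesins differed by 3.73 on the log2 scale. The lowest mitotic value was 1.75 (Kif18a), above the highest transport value of 1.04 (Kif1a). The ranges of log2 fold changes did not overlap between the mitotic and transport kinesins as classed here. Kif2a, which also acts at spindle poles, was placed among the others, and its log2 fold change of -0.17 lies within the transport range. Counting Kif2a as mitotic would make the ranges overlap. It kept 11 called higher and gave a mitotic median of 2.91.

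**Figure D1:**
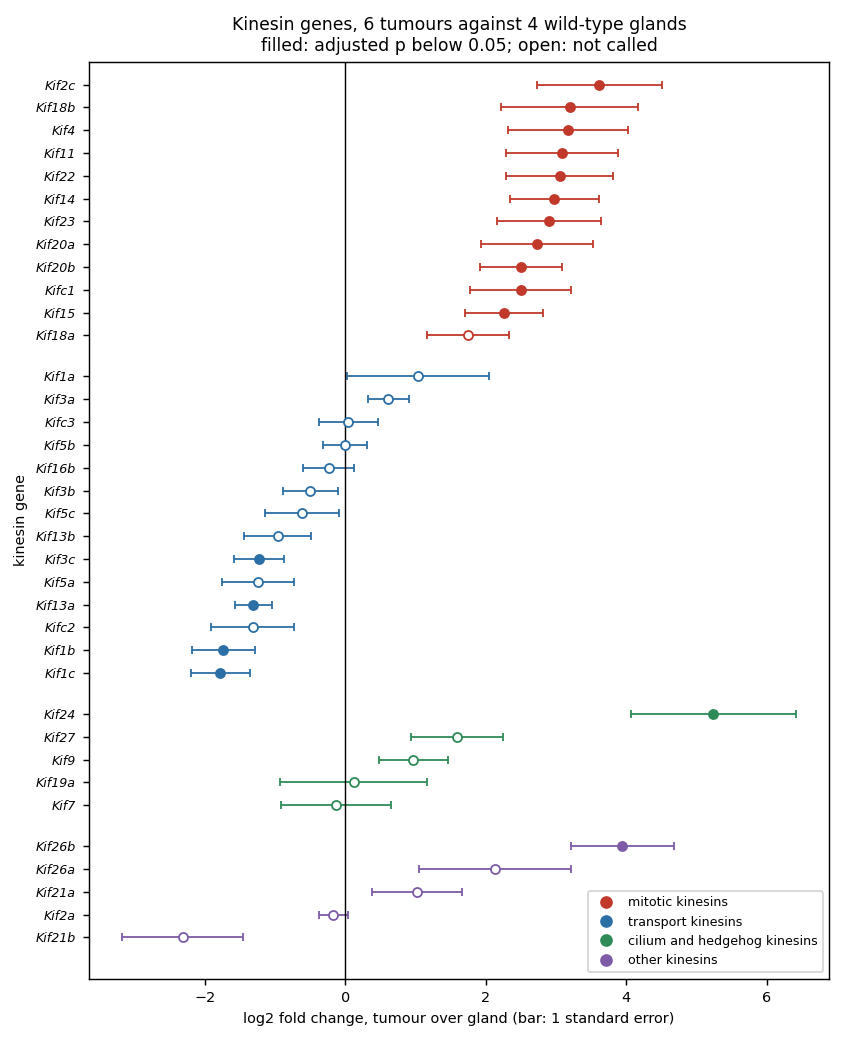
Log2 fold change, tumours over wild-type glands, of the 36 tested kinesin genes in 4 role classes, with bars of 1 standard error and filled points for genes with an adjusted p below 0.05. The 12 mitotic genes lie at 1.75 to 3.62, and the 14 transport genes at -1.78 to 1.04.

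The calls of the mitotic kinesins depended on which glands were used. Without gland 1 only Kif15 was called, and without gland 4 only Kif14, while over all genes 430 of 21114 and 883 of 21271 tested were then called higher. Without gland 3, 5 mitotic kinesins were called, beside 579 of 20901 genes called higher, and without tumour 2, 7, beside 980 of 19461. With age as a covariate 3 were called, Kif14, Kif15 and Kif20b, beside 908 of 20101 genes called higher. The median log2 fold change of the mitotic kinesins was then 2.75 and the difference from the transport median 3.43. All 12 log2 fold changes were positive in these and in every other fit made.

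Sums by library showed the same contrast. Summed over the 12 mitotic kinesins, levels were 39.0, 169, 404, 164, 128 and 88.8 CPM in tumours 1 to 6 and 9.79, 38.2, 33.1 and 15.3 CPM in glands 1 to 4. The lowest tumour sum, in tumour 1, was just above the highest gland sum, in gland 2. The 15 transport kinesins summed to 605, 494, 324, 431, 475 and 575 CPM in the tumours and to 846, 635, 599 and 1274 CPM in the glands. Tumour 1 lay between glands 3 and 2 here, and the other 5 tumours lay below every gland. Tumour 3 had the highest mitotic and the lowest transport sum of all libraries.

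The make-up of the kinesin transcripts was compared per kilobase of transcript, so that long and short genes count alike. Mitotic kinesins made up 7.54, 29.5, 48.1, 34.6, 25.4 and 18.3% of the summed kinesin level in tumours 1 to 6 and 1.94, 8.90, 8.05 and 2.12% in glands 1 to 4. Transport kinesins made up 72.9, 52.8, 23.4, 54.5, 56.5 and 68.7% in the tumours and 90.9, 80.1, 81.9 and 90.6% in the glands. For the mitotic share tumour 1 fell within the gland range, and for the transport share no tumour reached a gland. Kif5b, the widely expressed heavy chain of conventional kinesin, had the highest level per kilobase in 8 of the 10 libraries. The exceptions were tumour 3, where Kif24 was at 58.8 and Kif5b at 24.0 CPM per kilobase, and gland 1, where Kif1c was at 44.7 and Kif5b at 30.4.

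**Figure D2:**
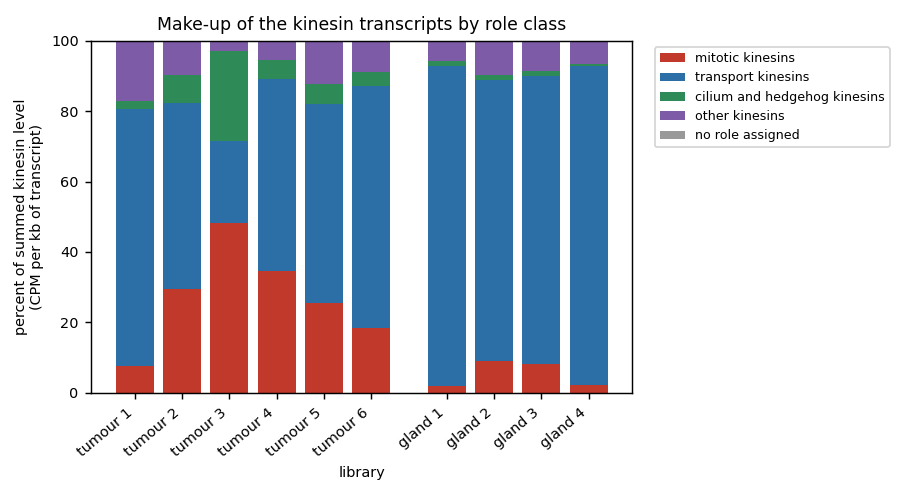
Percent of the summed kinesin level, in CPM per kilobase of transcript, held by each role class in 6 tumours and 4 wild-type glands. Mitotic kinesins hold 7.54 to 48.1% in tumours and 1.94 to 8.90% in glands.

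Mitotic kinesins were also set beside 15 proliferation markers that are not kinesins. These summed to 136, 838, 2610, 997, 739 and 484 CPM in tumours 1 to 6 and 114, 250, 219 and 106 CPM in glands 1 to 4, with 9 of 15 called higher, 0 lower and a median log2 fold change of 2.55. Per 100 CPM of proliferation markers, mitotic kinesins were at 28.6, 20.1, 15.5, 16.5, 17.3 and 18.3 CPM in the tumours and at 8.62, 15.3, 15.1 and 14.5 CPM in the glands. This ratio spanned 15.5 to 28.6 in the tumours and 8.62 to 15.3 in the glands, so the groups did not overlap, but tumour 3 exceeded gland 2 by little. It depends on the markers summed, whose log2 fold changes ran from 1.48 (Mcm3) to 4.68 (Ccnb1), on both sides of the kinesin median of 2.94. Cdk1, Ccna2 and Ccnb1 were called higher at 4.65, 4.11 and 4.68 (adjusted p = 0.0130, 0.0160 and 0.0160, edgeR). Their calls were lost without gland 1 (adjusted p up to 0.0581) and without both gland 2 and gland 3. The ratio ran far closer between groups than the sums, and its highest value was that of tumour 1, the tumour with the lowest sum. Mki67, the gene of the proliferation antigen Ki-67, had 7.26, 101, 144, 32.5, 33.6 and 35.02 CPM in the tumours and 3.91, 20.4, 14.4 and 1.46 CPM in the glands. Its log2 fold change of 2.55 ± 0.90 missed the threshold (adjusted p = 0.0766, edgeR) and passed it without tumour 1 (adjusted p = 0.0449).

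**Figure D3:**
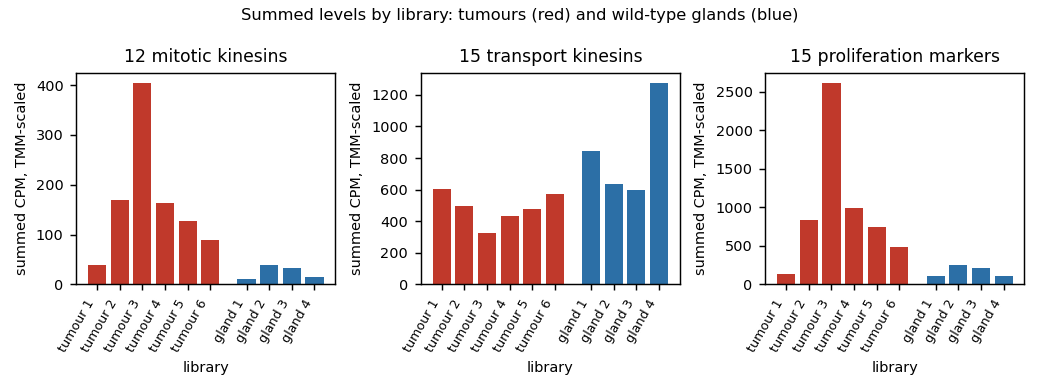
Summed TMM-scaled CPM of the 12 mitotic kinesins, the 15 transport kinesins and 15 proliferation markers in each of 6 tumours (red) and 4 wild-type glands (blue). Tumour 3 is the highest library for mitotic kinesins (404 CPM) and proliferation markers (2610 CPM) and the lowest for transport kinesins (324 CPM).

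Among the kinesins that set up the spindle, Kif11, Kif15 and Kifc1 were all called higher. Kif11, which pushes the spindle poles apart and is the target of several mitotic inhibitors, had 3.77, 16.4, 72.6, 17.0, 18.4 and 14.9 CPM in tumours 1 to 6 and 1.06, 4.81, 3.73 and 1.59 CPM in glands 1 to 4. Tumour 1 lay among the glands and tumour 3 far above the other tumours. The means were 23.9 ± 24.5 CPM in tumours and 2.80 ± 1.77 CPM in glands (SD, n = 6 and 4), and the log2 fold change was 3.09 ± 0.79 (adjusted p = 0.0270, edgeR). Kif15, a second motor that keeps the spindle bipolar, had 10.6, 14.8, 25.1, 14.4, 9.53 and 9.45 CPM in the tumours and 0.628, 4.53, 4.23 and 2.29 CPM in the glands. Every tumour was above every gland. Its log2 fold change was 2.26 ± 0.56 (adjusted p = 0.0234, edgeR). Kifc1, a minus-end-directed motor that focuses the poles and gathers extra centrosomes, had 1.37, 10.6, 10.6, 13.2, 6.92 and 5.27 CPM in the tumours and 0.342, 2.70, 1.67 and 0.890 CPM in the glands. It was the one mitotic kinesin whose highest tumour was tumour 4 and not tumour 3, and its log2 fold change was 2.50 ± 0.72 (adjusted p = 0.0394). Reads of Kifc1 and its copy Kifc5b, which had 19, 294, 196, 305, 153 and 99 counts in the tumours and 16, 98, 19 and 7 in the glands, may have been divided unevenly, so the level of Kifc1 is uncertain. The Kif11 call was lost without gland 1, 3 or 4 (adjusted p up to 0.0838), that of Kif15 without gland 4 (0.0594), and that of Kifc1 without any 1 of tumours 2 to 5 or glands 1, 3 and 4 (up to 0.1000).

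Of the 5 kinesins that act on chromosomes and kinetochores, 4 were called higher. Kif2c, which removes wrongly attached microtubules from centromeres, had 1.23, 12.1, 34.4, 14.2, 10.3 and 6.86 CPM in tumours 1 to 6 and 0.542, 1.83, 1.61 and 0.254 CPM in glands 1 to 4. With means of 13.2 ± 11.3 CPM in tumours and 1.06 ± 0.777 CPM in glands (SD, n = 6 and 4), it had the largest fold change of the mitotic members, 12.3-fold or 3.62 ± 0.89 on the log2 scale (adjusted p = 0.0230, edgeR). Kif22, which pushes chromosome arms towards the spindle equator, had 2.47, 15.6, 43.6, 12.3, 12.3 and 8.20 CPM in the tumours and 0.685, 3.11, 2.51 and 1.27 CPM in the glands, a log2 fold change of 3.05 ± 0.77 (adjusted p = 0.0252). For both genes tumours 2 to 6 were above every gland and tumour 1 was not. Kif4, which binds chromosome arms and shortens the midzone, had 0.959, 10.5, 25.9, 6.88, 8.48 and 4.10 CPM in the tumours and 0.428, 1.78, 1.45 and 0.509 CPM in the glands, a log2 fold change of 3.17 ± 0.85 (adjusted p = 0.0317). Kif18b, which limits the length of astral microtubules, had 0.480, 4.43, 9.87, 5.82, 4.32 and 2.68 CPM in the tumours and 0.0856, 1.19, 0.613 and 0.0636 CPM in the glands, a log2 fold change of 3.19 ± 0.98 (adjusted p = 0.0482). Tumour 1 again lay within the gland range for both genes.

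Kif18a, which damps chromosome movements at the metaphase plate, was the mitotic kinesin that missed the threshold. It had 3.02, 7.19, 20.5, 8.11, 6.53 and 3.88 CPM in the tumours and 1.17, 2.84, 3.23 and 2.54 CPM in the glands, a log2 fold change of 1.75 ± 0.58 (adjusted p = 0.0646, edgeR). Tumours 2 to 6 were above every gland here too, and the gene was called without tumour 1 (adjusted p = 0.0404), by DESeq2 (0.0143) and with upper-quartile scaling (0.0498). The Kif2c call was lost without gland 1 or 4 (adjusted p up to 0.0760), that of Kif22 without gland 1, 3 or 4 (up to 0.0776), that of Kif4 without tumour 2 or any 1 gland (up to 0.0967), and that of Kif18b without any 1 library other than tumour 1 and gland 2 (up to 0.122). Kif4 shares 753 exon bases with Pdzd11 on the other strand, and Pdzd11 itself had a log2 fold change of 0.16 (adjusted p = 0.726). Kif4 and Kif22 each have a pseudogene copy, to which some of their reads may have been assigned.

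All 4 kinesins of the midzone and cytokinesis were called higher. Kif23, which with Racgap1 forms the complex that bundles midzone microtubules, had 5.76, 34.1, 61.3, 40.3, 20.8 and 11.2 CPM in tumours 1 to 6 and 1.14, 6.20, 6.01 and 2.03 CPM in glands 1 to 4. Its means were 28.9 ± 20.6 CPM in tumours and 3.85 ± 2.63 CPM in glands (SD, n = 6 and 4), with a log2 fold change of 2.91 ± 0.74 (adjusted p = 0.0264, edgeR). Kif20a, which brings the Aurora B complex to the midzone, had 2.06, 16.5, 62.8, 11.8, 12.8 and 10.7 CPM in the tumours and 2.25, 4.56, 3.23 and 1.65 CPM in the glands, a log2 fold change of 2.73 ± 0.80 (adjusted p = 0.0422). Tumour 1 was lower than 3 of the 4 glands. Kif20b, a relative of Kif20a with a part in completing cytokinesis, had 4.32, 21.95, 29.1, 16.8, 14.3 and 8.59 CPM in the tumours and 1.14, 3.64, 4.29 and 2.10 CPM in the glands, a log2 fold change of 2.50 ± 0.59 (adjusted p = 0.0199). Its groups did not overlap, by a narrow margin between tumour 1 and gland 3. Kif14, which holds citron kinase at the midbody, had 3.02, 4.63, 7.91, 3.38, 2.995 and 2.899 CPM in the tumours and 0.314, 1.046, 0.557 and 0.127 CPM in the glands, a log2 fold change of 2.98 ± 0.64 (adjusted p = 0.0142). For Kif14 the tumours without tumour 3 lay close together and well above the glands.

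The calls of these 4 genes were also lost without single libraries: that of Kif23 without gland 1 or gland 4 (highest adjusted p 0.0760), of Kif20b without gland 1 or gland 4 (highest 0.0627), of Kif14 without gland 1 (0.0534) and of Kif20a without any 1 library other than tumours 1 and 6 (up to 0.122). Kif20a shares 1271 exon bases with Cdc23 on the other strand, and Cdc23 had a log2 fold change of 0.07 (adjusted p = 0.882). The sources used here do not say whether the counting used strand.

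**Figure D4:**
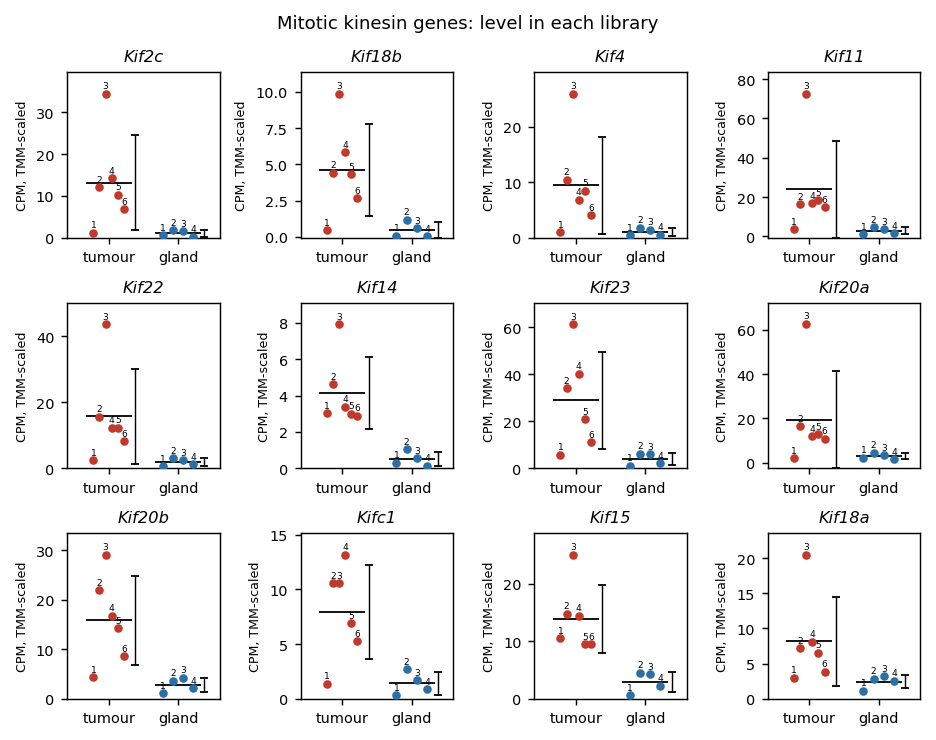
TMM-scaled CPM of the 12 mitotic kinesin genes in each library, numbered within 6 tumours (red, left) and 4 wild-type glands (blue, right), with the mean (line) and SD (bar). Tumour 3 is the highest point in 11 panels, and tumour 1 lies lowest of the tumours in 10.

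Single libraries also set the size of some of these called changes. Without tumour 3 the log2 fold change was 2.34 for Kif11, 1.88 for Kif20a, 2.43 for Kif22 and 2.57 for Kif4. Without gland 2 it was 4.19 for Kif18b and 3.61 for Kif14.

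The order of the libraries was much the same from one mitotic kinesin to the next. Tumour 3 was the highest tumour for 11 of 12 genes, and tumour 1 the lowest for 10, with tumour 6 the lowest for the other 2. Tumours 2 to 6 were above every gland for 12 of 12 genes, while tumour 1 was so for 3, Kif14, Kif15 and Kif20b. These 3 of 12 genes without overlap compare with 6.54% of all tested genes in which every tumour was above every gland. Among the glands, gland 2 was highest for 10 genes and gland 3 for 2, and gland 1 was lowest for 8 and gland 4 for 4. Glands 2 and 3 were also the glands with the highest summed T cell and B cell markers, and the part of these cells in the gland levels was not tested. Without these glands, an alternative added on seeing the data, the median log2 fold change of the mitotic kinesins was 4.09, and with only 2 glands left Kif14, Kif15 and Kif18b were called. Over all genes 174 of 22042 tested were then called higher. Tumour 1, with its high salivary share, was the tumour closest to the glands, and without it all 12 mitotic kinesins were called, with a median of 3.05. Calls rose over all genes as well, to 1737 of 19779 called higher, against 1384 of 20101 with all libraries.

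The promoters of the mitotic kinesins were searched for sequence motifs of cell cycle genes. RefSeq promoter windows (GRCm38.p6, from 250 bases before to 50 bases after the annotated start) were at hand for 31 of the 40 members, 11 of them mitotic and 10 transport kinesins, and for 27025 genes in all. The first motif is the cell cycle homology region (CHR), searched as TTTGAA or TTCGAA on both strands, which is known to bind the DREAM and B-MYB complexes that silence such genes in resting cells and activate them in G2. It was in 10 of 11 mitotic windows (90.9%), all but that of Kif18a, in 0 of 10 transport windows, and in 19.4% of all windows. The CCAAT box, bound by NF-Y and often found near a CHR, was in 7 of 11 mitotic windows (63.6%), 3 of 10 transport windows and 37.9% of all windows. Both motifs together were in 7 of 11 mitotic windows and 7.7% of all. E2F sites, searched as TTTCGCGC, TTTGGCGC or TTCCCGCC, were in 2 of 11 mitotic windows (18.2%), those of Kif15 and Kif18a, 0 of 10 transport windows and 3.03% of all windows. These counts describe letters in short windows and are no test, and a match is not shown to be bound. Kif22 and Kifc1, with 4 matches each, had the most of the mitotic members, and Kif15 was taken by its lower adjusted p from 3 members with 3 matches, the others being Kif18b and Kif4. The window of Kif1c, the transport kinesin with the highest mean CPM among those whose window could be shown, is given for contrast. Kif1b was at nearly the same mean CPM, and its window holds 2 CCAAT boxes. They are shown 5′ to 3′ along the gene's own strand, with motif matches in capitals (TTCAAA and ATTGG are the CHR and CCAAT box read from the other strand).

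Kif22 (chr7:127042371-127042670, minus strand): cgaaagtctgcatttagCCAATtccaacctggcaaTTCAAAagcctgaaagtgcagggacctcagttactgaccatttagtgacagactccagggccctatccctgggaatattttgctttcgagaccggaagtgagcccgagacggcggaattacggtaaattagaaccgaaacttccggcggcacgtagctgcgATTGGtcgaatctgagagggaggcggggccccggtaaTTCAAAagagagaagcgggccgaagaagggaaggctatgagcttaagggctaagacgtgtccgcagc

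Kifc1 (chr17:33890584-33890883, minus strand): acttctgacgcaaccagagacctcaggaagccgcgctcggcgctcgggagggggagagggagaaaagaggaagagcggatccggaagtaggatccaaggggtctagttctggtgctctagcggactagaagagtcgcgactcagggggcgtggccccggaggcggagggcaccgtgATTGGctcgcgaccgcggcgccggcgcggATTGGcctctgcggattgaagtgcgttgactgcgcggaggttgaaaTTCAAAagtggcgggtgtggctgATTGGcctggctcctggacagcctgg

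Kif15 (chr9:122950831-122951130, plus strand): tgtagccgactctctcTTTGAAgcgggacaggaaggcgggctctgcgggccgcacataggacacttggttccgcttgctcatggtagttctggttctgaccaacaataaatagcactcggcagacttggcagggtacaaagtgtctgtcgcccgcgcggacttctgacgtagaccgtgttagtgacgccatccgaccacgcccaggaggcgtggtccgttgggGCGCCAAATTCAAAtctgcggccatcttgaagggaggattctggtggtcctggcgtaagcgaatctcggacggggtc

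Kif1c (chr11:70700298-70700597, plus strand): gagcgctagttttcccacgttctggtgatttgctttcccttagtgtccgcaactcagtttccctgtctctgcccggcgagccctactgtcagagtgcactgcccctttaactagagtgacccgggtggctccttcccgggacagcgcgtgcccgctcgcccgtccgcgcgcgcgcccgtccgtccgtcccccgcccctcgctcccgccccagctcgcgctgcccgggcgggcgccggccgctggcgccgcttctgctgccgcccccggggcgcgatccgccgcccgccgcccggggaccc

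In the Kif22 window a CHR starts 17 bases and another 215 bases before the annotated start, with CCAAT boxes 54 and 233 bases before it. In the Kifc1 window the CHR starts at the second transcribed base, behind CCAAT boxes 74 and 45 bases before the start, and a further box lies at base 25 after it. The Kif15 window has no CCAAT box, and an E2F site 27 bases before the start runs straight into a CHR at 19 bases before it. The Kif1c window holds none of these motifs.

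Transport kinesins held most of the kinesin level per kilobase in glands. Of the 14 tested, 11 had a negative log2 fold change and 3 a positive one, against 11254 of all 20101 tested genes with a positive one. The 4 called lower were Kif13a, Kif1b, Kif1c and Kif3c. In 3 of them, all but Kif1b, every tumour was below every gland, which was so for 7.5% of all tested genes. Kif17, a homodimeric motor of dendrites and cilia, was at or below 0.278 CPM in all libraries and was not tested.

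Kif5b and its neuronal relatives form kinesin-1, the conventional kinesin. Kif5b had 281, 238, 145, 239.8, 272 and 249.1 CPM in tumours 1 to 6 and 184, 185, 211 and 370.1 CPM in glands 1 to 4. Tumour 3 was the lowest library and gland 4 the highest, and the remaining libraries overlapped. Means of 237 ± 48.6 CPM in tumours and 237 ± 89.3 CPM in glands (SD, n = 6 and 4) gave a log2 fold change of -0.00 ± 0.31 (adjusted p = 0.999, edgeR), whose sign changed with the scaling and with the libraries used. Kif5c had 6.24, 1.38, 5.89, 1.87, 3.53 and 4.24 CPM in the tumours and 3.48, 4.37, 4.79 and 11.0 CPM in the glands, a log2 fold change of -0.62 ± 0.52 (adjusted p = 0.416). Kif5a had at most 0.502 CPM in the tumours and 1.08 CPM in the glands (adjusted p = 0.119). Neither neuronal gene was called.

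In kinesin-2, whose motors drive transport along the cilium, Kif3a and Kif3b pair with each other and Kif3a also pairs with Kif3c. Kif3a had 30.2, 49.96, 33.6, 33.4, 34.0 and 22.8 CPM in the tumours and 18.3, 16.6, 21.4 and 32.7 CPM in the glands, a log2 fold change of 0.61 ± 0.29 (adjusted p = 0.165, edgeR). Kif3b had 11.2, 7.84, 16.0, 13.4, 15.3 and 18.4 CPM in the tumours and 24.0, 25.6, 21.4 and 6.10 CPM in the glands, a log2 fold change of -0.50 ± 0.39 (adjusted p = 0.385). The fold changes of these partners had opposite signs, neither passed the threshold, and gland 4 was the highest gland for Kif3a and the lowest for Kif3b. Kif3c had 3.84, 6.94, 6.73, 6.90, 4.89 and 6.16 CPM in the tumours and 11.4, 9.44, 9.97 and 24.8 CPM in the glands. All tumours were below all glands, and gland 4 was far above the other glands. The log2 fold change of Kif3c was -1.23 ± 0.35 (adjusted p = 0.0399) and -0.85 without gland 4 (adjusted p = 0.106), and the call was lost without any 1 library other than tumours 1 and 3 (0.106 at most), and with upper-quartile scaling (0.0591), no filter (0.0767) or limma-voom (0.0601). Kif3c shares 2617 exon bases with 1110002L01Rik, which had a log2 fold change of 0.35 (adjusted p = 0.585).

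The clearest decreases among transport kinesins were in kinesin-3, the vesicle carriers. Kif13a, a motor of recycling endosomes, had 12.4, 18.6, 13.2, 14.2, 13.1 and 20.3 CPM in tumours 1 to 6 and 46.6, 30.7, 26.9 and 47.5 CPM in glands 1 to 4. Every tumour was below every gland. Means were 15.3 ± 3.32 CPM in tumours and 37.9 ± 10.7 CPM in glands (SD, n = 6 and 4), and the log2 fold change of -1.31 ± 0.27 (adjusted p = 0.0118, edgeR) kept its call without any 1 library (adjusted p at most 0.0476). Kif1c, a carrier of secretory vesicles and integrins, had 71.0, 71.6, 21.7, 50.7, 51.8 and 122 CPM in the tumours and 299, 174, 147 and 272 CPM in the glands. The groups did not overlap, with tumour 6 nearest to the glands. Its means were 64.8 ± 33.4 CPM in tumours and 223 ± 73.8 CPM in glands, a 3.44-fold decrease or a log2 fold change of -1.78 ± 0.42 (adjusted p = 0.0205), and the call was lost without gland 1 (adjusted p = 0.0667). Kif1b, which carries mitochondria and synaptic vesicle precursors, had 121, 53.6, 51.4, 38.7, 54.4 and 77.4 CPM in the tumours and 183, 131, 111 and 457 CPM in the glands. Tumour 1 lay above gland 3, and the other 5 tumours were below every gland. The log2 fold change of Kif1b was -1.74 ± 0.45 (adjusted p = 0.0282) and -1.19 without gland 4 (adjusted p = 0.0492), and the call was lost without gland 1 and without any of tumours 2, 4 and 5 (highest adjusted p 0.0612).

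Kif13b, a scaffold-binding vesicle motor, had 25.3, 12.4, 5.19, 5.77, 8.52 and 16.8 CPM in the tumours and 35.8, 26.3, 22.2 and 11.4 CPM in the glands, a log2 fold change of -0.96 ± 0.48 (adjusted p = 0.181). Kif16b, which positions early endosomes, had a log2 fold change of -0.24 ± 0.37 (adjusted p = 0.664), with 11.6 to 37.0 CPM in tumours and 15.04 to 35.1 CPM in glands. Kif1a, the axonal carrier of synaptic vesicle precursors, was highest in tumour 2 at 5.52 CPM, with no more than 2.29 CPM in any other tumour and 1.11 CPM in any gland (log2 fold change 1.04 ± 1.01, adjusted p = 0.481). The minus-end-directed Kifc2 and Kifc3 had log2 fold changes of -1.32 ± 0.59 and 0.04 ± 0.42 (adjusted p = 0.144 and 0.952). None of these 5 genes was called.

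**Figure D5:**
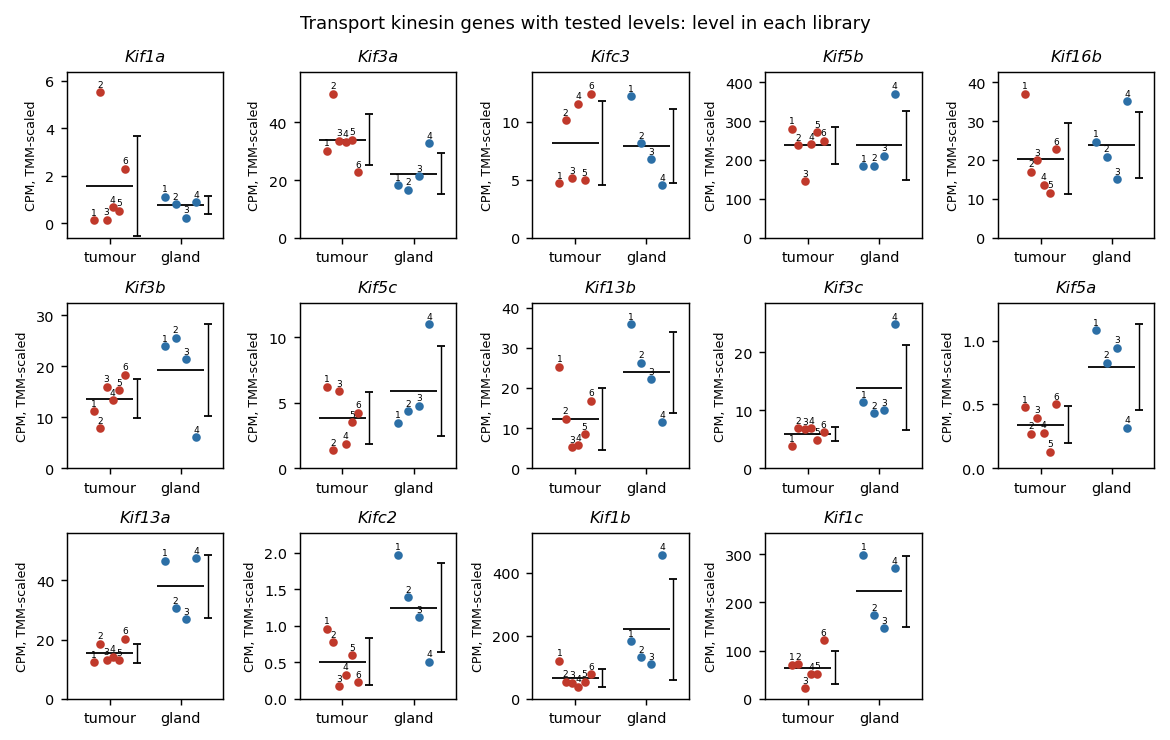
TMM-scaled CPM of the 14 tested transport kinesin genes in each library, numbered within 6 tumours (red, left) and 4 wild-type glands (blue, right), with the mean (line) and SD (bar), from the highest to the lowest log2 fold change. In Kif13a, Kif1c and Kif3c all tumours lie below all glands.

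Markers of muscle and nerve were read beside the transport kinesins. Summed skeletal muscle markers were at 2.92 to 910 CPM in tumours and 36.3 to 121942 CPM in glands, with 7 of 10 called lower, and gland 4 had the highest muscle share. Gland 4 was the highest gland for 7 of the 15 transport kinesins, among them Kif1b, Kif3c and Kif5b. It was the lowest gland for Kif13b, Kif3b, Kif5a, Kif17, Kifc2 and Kifc3. Neuronal markers summed to 0.519 to 179 CPM in tumours and 4.83 to 10.7 CPM in glands, where the 179 CPM of tumour 5 held 173 CPM of Syt1 and 5.45 CPM of the other 9 markers, with 0 of 5 tested called higher and 1 lower. Schwann cell markers summed to 48.4 to 101 CPM in tumours and 55.0 to 94.9 CPM in glands, with 1 of 7 called higher and 1 lower. The part of muscle, adipocytes or nerve in the transport kinesin levels was not tested. With upper-quartile scaling, which moved the median of all tested genes to 0.32, 10 of 14 transport kinesins had negative values. With a filter of at least 1 CPM in 4 libraries, 9 of 13 had.

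Of the 7 kinesins of cilia and hedgehog signalling, 5 were tested and 1, Kif24, was called higher in tumours, beside 6.89% of all tested genes. Kif24 removes tubulin at the mother centriole and holds back the growth of the primary cilium. It had 8.57, 57.8, 329, 28.8, 32.8 and 22.5 CPM in tumours 1 to 6 and 0.856, 1.47, 1.34 and 4.90 CPM in glands 1 to 4. Every tumour was above every gland, and tumour 3 was above every other tumour by a wide margin. With means of 79.9 ± 123 CPM in tumours and 2.14 ± 1.86 CPM in glands (SD, n = 6 and 4), the log2 fold change was 5.24 ± 1.17 (adjusted p = 0.0170, edgeR), the largest of all 36 tested kinesins at 37.8-fold. Without tumour 3 it was 3.84 (adjusted p = 0.0111) and without gland 4 it was 5.98 (adjusted p = 0.0237), and the call was lost without gland 1 or gland 2 (adjusted p = 0.0589 and 0.0522) and without both gland 2 and gland 3 (0.148). The promoter window of Kif24 held 1 CHR and 4 CCAAT boxes. Both motifs were also in the windows of Kif27 (3 CHR and 1 CCAAT box), which was not called, and of Kif26b (1 of each). They were thus together in 2 of 6 windows of the cilium and hedgehog class and 1 of 4 windows of the other kinesins.

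Kif7, a regulator of Gli factors at the cilium tip, had 0.0685, 3.71, 1.78, 4.98, 1.45 and 2.12 CPM in the tumours and 4.22, 2.75, 2.56 and 0.763 CPM in the glands (log2 fold change -0.13 ± 0.79, adjusted p = 0.921). Kif9 and Kif27, genes tied to motile cilia, had log2 fold changes of 0.97 ± 0.49 and 1.59 ± 0.65 (adjusted p = 0.186 and 0.116), and Kif19a, which sets cilium length, one of 0.12 ± 1.05 (adjusted p = 0.947). Kif27 was highest in tumour 5, at 2.77 CPM, and that tumour also had the highest Kif6, at 1.67 CPM. Summed markers of ciliated cells spanned 2.68 to 47.4 CPM in tumours, and 1.11 to 10.9 CPM in glands. The highest sum, in tumour 5, was 45.3 CPM of Foxj1, with 2.10 CPM for the other 7 markers and Dnah5 at 0. Of their 3 tested genes 0 were called, and the part of such cells in these kinesins was not tested. Kif6, Kif12 and Kif28 had too few counts for a test.

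Among the other 5 kinesins Kif26b was called higher in tumours, beside 6.89% of all tested genes. Kif26b, a kinesin of cell adhesion and movement known from kidney development, had 7.88, 13.5, 1.68, 4.18, 16.3 and 12.7 CPM in tumours 1 to 6 and 0.514, 0.406, 0.334 and 1.21 CPM in glands 1 to 4. Every tumour was above every gland, and here tumour 3 was the lowest tumour. The log2 fold change was 3.95 ± 0.74 (adjusted p = 0.00903, edgeR), or 15.4-fold, and stayed called without any 1 library (adjusted p at most 0.0381), but not without both gland 2 and gland 3 (0.0870). Kif26a, its close relative, had 7.95, 40.7, 0.173, 1.13, 14.5 and 6.64 CPM in the tumours and 2.996, 3.29, 2.34 and 2.16 CPM in the glands (log2 fold change 2.13 ± 1.08, adjusted p = 0.188). Tumours lay on both sides of the glands, with tumours 3 and 4 below them. In both genes tumour 3 had the lowest tumour level, the reverse of the mitotic kinesins.

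Kif21a, which restrains microtubule growth, had 98.3, 18.9, 15.04, 15.2, 60.3 and 33.4 CPM in the tumours and 17.2, 9.29, 11.1 and 41.7 CPM in the glands (log2 fold change 1.02 ± 0.65, adjusted p = 0.282). Kif21b, its relative in neurons and T cells, had 4.52, 5.16, 0.742, 1.25, 4.45 and 5.52 CPM in the tumours and 5.85, 40.5, 24.7 and 0.763 CPM in the glands. Glands 2 and 3, the glands with the highest T and B cell markers, were far above every other library. The log2 fold change of -2.32 ± 0.86 (adjusted p = 0.0884) became 0.09 without those glands, and the gene was called lower without gland 4 (adjusted p = 0.0306) and by DESeq2 (0.0269). Kif2a, a microtubule depolymerase of neurons and spindle poles, was the steadiest of these genes, at 20.8 to 25.5 CPM in the tumours and 21.9 to 30.1 CPM in the glands (log2 fold change -0.17 ± 0.21, adjusted p = 0.584).

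The partners of both classes were read from lists of genes that are not members. Of 17 mitotic partners, such as regulators and cargo of the mitotic motors, 14 were called higher and 0 lower, with a median log2 fold change of 3.12. Cenpe, the kinetochore kinesin outside the name rule, averaged 28.2 ± 18.2 CPM in tumours and 2.28 ± 1.45 CPM in glands (SD, n = 6 and 4), with every tumour above every gland and a log2 fold change of 3.62 ± 0.75 (adjusted p = 0.0128, edgeR). Racgap1, the partner of Kif23, missed the threshold (adjusted p = 0.0548), as did Incenp (0.0949) and Aurka (0.106).

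Of 17 tested transport adaptors, 1 was called higher and 4 lower, with a median log2 fold change of -0.51. Over all tested genes the shares were 6.89% and 8.19%, so the adaptor counts rest on few genes. Klc3, a kinesin light chain, was the one that rose, with 24.3 ± 8.73 CPM in tumours and 4.52 ± 2.08 CPM in glands (SD, n = 6 and 4) and a log2 fold change of 2.43 ± 0.41 (adjusted p = 0.00596, edgeR). Klc1, the light chain best known from neurons, fell to 18.6 ± 3.67 CPM in tumours, against 35.4 ± 7.19 CPM in glands (log2 fold change -0.93 ± 0.24, adjusted p = 0.0291). Klc3 and Klc1 thus moved in opposite directions, while Kif5b, the heavy chain they bind, was not called. Of the other light chains, named after their values were seen, Klc2 was called lower (log2 fold change -1.70, adjusted p = 0.0343) and Klc4 was not called (-0.19, adjusted p = 0.790). Trak1, which links kinesin-1 to mitochondria, had a log2 fold change of -1.27 ± 0.30 (adjusted p = 0.0191), and Kif1bp, a kinesin-binding protein, one of -0.91 ± 0.23 (adjusted p = 0.0260). The Klc3 call held without any 1 library but not without both gland 2 and gland 3 (adjusted p = 0.0663), while that of Trak1 was lost without gland 1 (adjusted p = 0.0649), that of Kif1bp without tumour 4, gland 1 or gland 2 (up to 0.0928) and that of Klc1 without tumour 4 or gland 1, 2 or 3 (up to 0.104).

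Dynein and dynactin genes, whose complex moves the other way along microtubules, had 1 of 19 tested called higher and 2 lower, with a median log2 fold change of -0.28. The shares over all tested genes were 6.89% higher and 8.19% lower, so counts this small say little about the list. Dynll1, a light chain, was higher at 1.49 ± 0.39 on the log2 scale (adjusted p = 0.0293, edgeR), and the dynactin subunit Dctn1 and the adaptor Bicd2 were lower at -1.23 ± 0.28 and -1.15 ± 0.32 (adjusted p = 0.0183 and 0.0349). The Dctn1 call was lost without gland 1 (adjusted p = 0.0638), that of Dynll1 without tumour 4 or any 1 gland (up to 0.0957), and that of Bicd2 without any 1 of tumours 2 to 4 or glands 1 to 3 (up to 0.120). Tubulin genes, which encode the track itself, had 2 of 13 called higher and 3 lower, with a median of 0.55. The tubulin counts, too, rest on few genes beside the same shares. Tuba1c averaged 161 ± 74.9 CPM in tumours and 24.9 ± 9.79 CPM in glands (SD, n = 6 and 4), with a log2 fold change of 2.69 ± 0.47 (adjusted p = 0.00725) that stayed called without any 1 library. Tubb2b was also higher, by 2.31 ± 0.56 on the log2 scale (adjusted p = 0.0223), a call lost without any 1 gland (up to 0.0618) and with age as a covariate (0.0508). Tuba8 had the largest decrease, with means of 1.69 ± 1.61 CPM in tumours and 67.1 ± 103 CPM in glands (SD, n = 6 and 4) and a log2 fold change of -5.33 ± 1.25 (adjusted p = 0.0201). Without gland 4, the gland with the highest muscle share, it was -3.34 and not called (adjusted p = 0.0601). Tubb4a and Tubg1 were lower at -3.18 ± 0.93 and -1.06 ± 0.30 (adjusted p = 0.0425 and 0.0383). The call of Tubb4a was lost without any 1 of tumours 2 to 5 or glands 1 to 3 (up to 0.134), and that of Tubg1 without any 1 of tumours 4 to 6 or glands 1 to 3 (up to 0.145).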

How the data were processed

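Whole tissue was homogenised in TRIzol and libraries were made with a NEBNext Ultra kit, per the labels' protocols. The authors deposited 1 table of whole-number counts by gene symbol. Salmon 1.2.0, DESeq and mm9 are listed in the submitters' processing notes. Neither the summing of transcripts to genes nor the use of strand is stated in the sources used here.

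Genes were kept by filterByExpr defaults, scaled by TMM and tested with edgeR 4.0.16 (R 4.3.3; quasi-likelihood F test, tumour against gland, no covariate), with Benjamini-Hochberg adjustment over 20101 genes called below 0.05. Each standard error is the absolute log2 fold change over the square root of its F. The biological coefficient of variation was 0.707, and TMM gave tumour 1 and gland 4 the low factors 0.422 and 0.580. The fits were tested on simulated data. Of 45 library pairs, glands 2 and 3 were the most alike, with a chi-square per degree of freedom of 37.8, against 155 for the next pair, glands 1 and 3. No library was thus a plain repeat count of another. Whether 2 libraries came from 1 animal cannot be told from this value. Levels per kilobase use the longest protein-coding GENCODE M21 transcript, whose exons also gave the overlaps. Alternatives were RLE and upper-quartile scaling, other filters, DESeq2 1.42.0, limma-voom (limma 3.58.1), age as a covariate and leaving out libraries.

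The members and lists were chosen with earlier results of these data known, and no list was tested as a set. Values are given for every mitotic member, every called member and the 4 highest tested members of each other class; of each partner list at most 3 called genes per direction, beside Cenpe and Mki67; and the promoters of at most 3 mitotic members with the most motif matches and 1 transport member.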

Additional observations from a re-analysis of the deposited data

Results flagged for a closer look

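In 14 of 72 groups of values tested, 1 library lay far from the others of its group by Dixon's gap test, which chance gives in about 1 of 20 groups of normally distributed values. The test was run on CPM without a log, so that rate may not hold here. Libraries recur, so the flags are not independent. Tumour 3 was far above the other tumours for Kif11 (72.6 CPM, others 3.77 to 18.4), Kif14 (7.91, others 2.899 to 4.63), Kif15 (25.1, others 9.45 to 14.8), Kif18a (20.5, others 3.02 to 8.11), Kif20a (62.8, others 2.06 to 16.5), Kif22 (43.6, others 2.47 to 15.6) and Kif24 (329, others 8.57 to 57.8). The same tumour was far below the others for Kif5b, at 145 CPM against 238 to 281. Tumour 2 stood above the other tumours for Kif26a (40.7 CPM, others 0.173 to 14.5), and tumour 5 for Kif27 (2.77 CPM, others 0.390 to 0.988). Gland 4 was far above the other glands for Kif24 (4.90 CPM, others 0.856 to 1.47), Kif3c (24.8, others 9.44 to 11.4) and Kif5b (370.1, others 184 to 211). Gland 1 was above the other glands for Kif27 (0.542 CPM, others 0.250 to 0.278).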

How the results depend on the processing

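All 12 mitotic kinesins had positive log2 fold changes in every fit, but the number called moved: leaving out 1 library gave 1 to 12, age as a covariate gave 3, and leaving out glands 2 and 3, an alternative added on seeing the data, gave 3. The number of all genes called higher moved too, with 430 of 21114 without gland 1, 1737 of 19779 without tumour 1 and 174 of 22042 without glands 2 and 3. Leaving out 1 library gave 1 to 4 transport kinesins called lower, and 1 to 3 kinesins of the remaining classes called, which became 0 without glands 2 and 3. Without those glands the mitotic median was 4.09 and the difference between the mitotic and transport medians 5.03. Leaving out 1 library kept the mitotic median at 2.42 to 3.32, the transport median at -0.98 to -0.64 and their difference at 3.21 to 4.16. Of 36 tested members, 5 changed sign under at least 1 alternative, and 0 of them were called: Kifc3 (-0.28 to 0.33 over all alternatives); Kif7 with upper-quartile scaling (0.068), age as a covariate (0.32), without tumours 1 and 6 (0.19) and over single left-out libraries (-0.47 to 0.21); Kif19a with limma-voom (-1.51), without tumours 1 and 6 (-2.22), also without gland 4 (-2.50), and over single left-out libraries (-0.54 to 0.38); Kif5b with upper-quartile scaling (0.15), the stricter filter (0.041), limma-voom (0.026), without tumours 1 and 6 and gland 4 (0.10) and over single left-out libraries (-0.11 to 0.23); and Kif21b without glands 2 and 3 (0.089). Of 920 values of single genes under the alternatives, 736 kept direction and call, 153 lost the call, 11 gained one and 20 changed sign. Fewer libraries were fitted where libraries were left out, and the cause of the other changes was not tested. No paired analysis was possible because replicate numbers only name libraries here. With 4 glands and low levels of many members in them, a member that missed the threshold may still differ. Tumour state and Cre status cannot be told apart, and age is confounded with them in part.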
